A study of Junonia coenia with 20 samples.

Results

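A set of 100 transcripts rose during ommochrome deposition in wings of the buckeye butterfly Junonia coenia. In every ommochrome-stage library analysed, their log2 levels lay above the means of larval discs and of pre-pigment pupal wings. Single earlier libraries could still reach ommochrome levels. The 100 were chosen from 16251 transcripts by their own expression values. For each transcript the lowest of the 8 ommochrome-stage levels was taken, and the higher of the larval and pre-pigment means was subtracted from it. Levels were log2(scaled RPKM + 1), where scaled RPKM is the authors' RPKM (reads scaled to transcript length and to the reads of the library) divided by a factor for each library. The 14639 transcripts whose early and late means lay within 1 log2 unit of each other were ranked by this value, and the top 100 were kept. The early against late difference and the rise from the earlier stages therefore chose the transcripts, and they are described below without a test.

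Libraries came from hind wings of 2 colour morphs, Linea and Rosa, at 4 stages. Sampling covered imaginal discs of the last larval instar (the fifth), pre-pigment pupae, early ommochrome development (yellow) and late ommochrome development (orange or red). Of 20 labelled samples, 16 had values, so that each morph and stage was represented by 2 libraries. Not analysed here were 4 samples, namely replicate 1 of the larvae of each morph, replicate 3 of early Linea and replicate 2 of early Rosa. Animals descended from a North Carolina population and were fed artificial diet. Rearing was at 21°C with 8 h of light or at 27°C with 16 h, regimes that are known to yield different morphs. The labels do not state which morph was reared in which regime, so a morph difference cannot be told apart from a rearing difference. They also do not state whether replicates are separate animals, pools of animals or preparations from the same material, so each p-value reflects library-to-library variation that may be purely technical.

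Ommochromes are yellow, red and brown pigments that insects make from tryptophan. Tryptophan is oxidised to kynurenine through the product of vermilion and hydroxylated through that of cinnabar, and ABC transporters such as white and scarlet carry pigment precursors into granules. In nymphalid wings the pigments fill scale cells, each of which makes a single flat cuticular scale during pupal life and takes on its colour shortly before the adult emerges. Transcripts carry only assembly identifiers in the files used here, without a gene name, length or sequence. None of the 100 could thus be matched to these genes, to another pathway or to a marker of a cell type, and the tissue label could not be checked against markers. A de novo assembly can also hold several fragments of 1 gene, so 100 identifiers may stand for fewer genes. In whole wings, fewer cells of a type and less RNA per cell cannot be told apart.

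The summed RPKM of a library ran from 487429 to 832300, and 11339 to 14314 transcripts reached 1 RPKM. Sequencing depth is unknown. The Rosa pre-pigment library of replicate 1 had the fewest transcripts at 1 RPKM. Larval libraries had scaling factors of 1.67 to 1.81, against 0.578 to 1.42 in pupal libraries, so scaled larval values are lower than the deposited ones.

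The choice required a rise at the ommochrome stages, so the share of RPKM held by the 100 transcripts is only described. Abundant transcripts weigh most in it, such as JC_0049178 at 2413 scaled RPKM over the ommochrome libraries, against a median of 38.8. Of all RPKM in a library the 100 made up 0.249% ± 0.128 (SD, n = 4) in larval discs and 0.405% ± 0.0808 (SD, n = 4) in pre-pigment wings. At early ommochrome they held 1.80% ± 0.424 (SD, n = 4) and at late ommochrome 2.36% ± 0.449 (SD, n = 4). Every ommochrome library, from 1.34% upwards, lay above every earlier library, of which the highest was Rosa pre-pigment replicate 1 at 0.471%. Rosa larva replicate 2, at 0.440%, was the highest larval library. The median of the 100 transcripts was 1.44 to 2.54 scaled RPKM in the larval libraries, 3.95 to 8.68 in the pre-pigment ones, 31.1 to 43.0 at early and 30.9 to 51.0 at late ommochrome. The median of all transcripts in the table stayed between 4.94 and 7.05 scaled RPKM in the 16 libraries. All 100 were at 1 RPKM or more in each of the 8 ommochrome libraries, which let all of them pass the low-value filter of the tests below. Between 62 and 89 of them reached 1 RPKM in any earlier library.

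**Figure D1:**
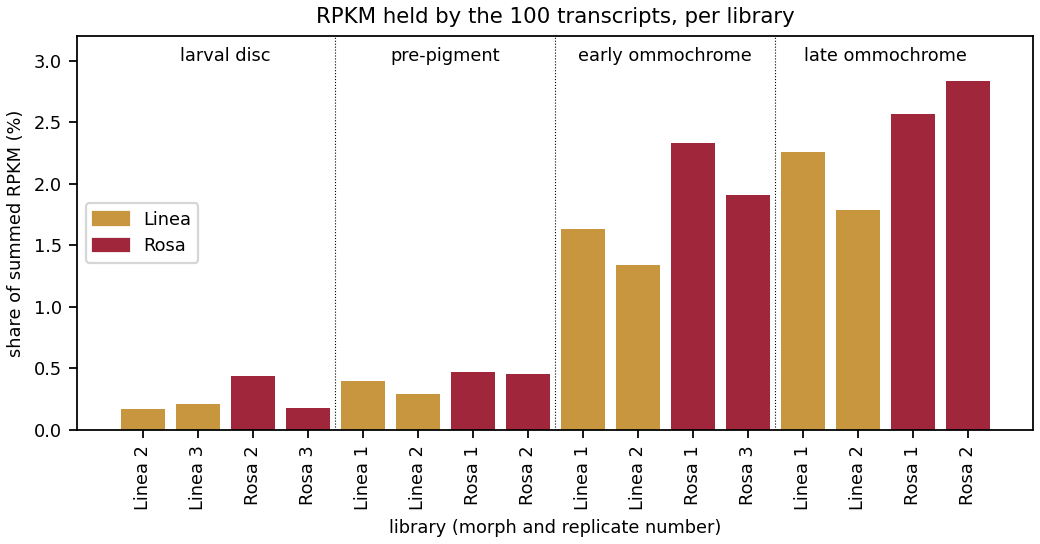
Share of the summed RPKM held by the 100 transcripts (y axis, percent, from 0) in each of the 16 libraries (x axis, by stage, morph and replicate number). The 8 ommochrome libraries sit between 1.34% and 2.84%, all above the 8 earlier libraries, which sit between 0.169% and 0.471%.

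Sizes of the rise varied widely within the set. The mean over early and late ommochrome exceeded the higher of the larval and pre-pigment means by a median of 2.11 log2 units, with a range of 1.17 to 5.03. For 59 transcripts the rise was at least 4-fold and for 18 at least 8-fold. In 61 of the 100, all 8 ommochrome libraries lay above all 8 earlier ones, as in 0.855% of all transcripts tested; the choice used these values, so nothing is read from this count. The levels reached at the ommochrome stages ran from 3.41 to 2413 scaled RPKM, with 29 transcripts at 100 or more, 62 between 10 and 100 and 9 below 10. Their median, 38.8 scaled RPKM, compares with 7.61 for all 15798 transcripts tested. At the lower end of the set, JC_0111984, JC_0110454 and JC_0016818 had values of 0.897, 0.893 and 0.890 log2 units for the quantity that ranked the transcripts. The first 3 left out, JC_0105968, JC_0111169 and JC_0115238, had 0.889, 0.883 and 0.878, so the set has no natural lower edge.

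**Figure D2:**
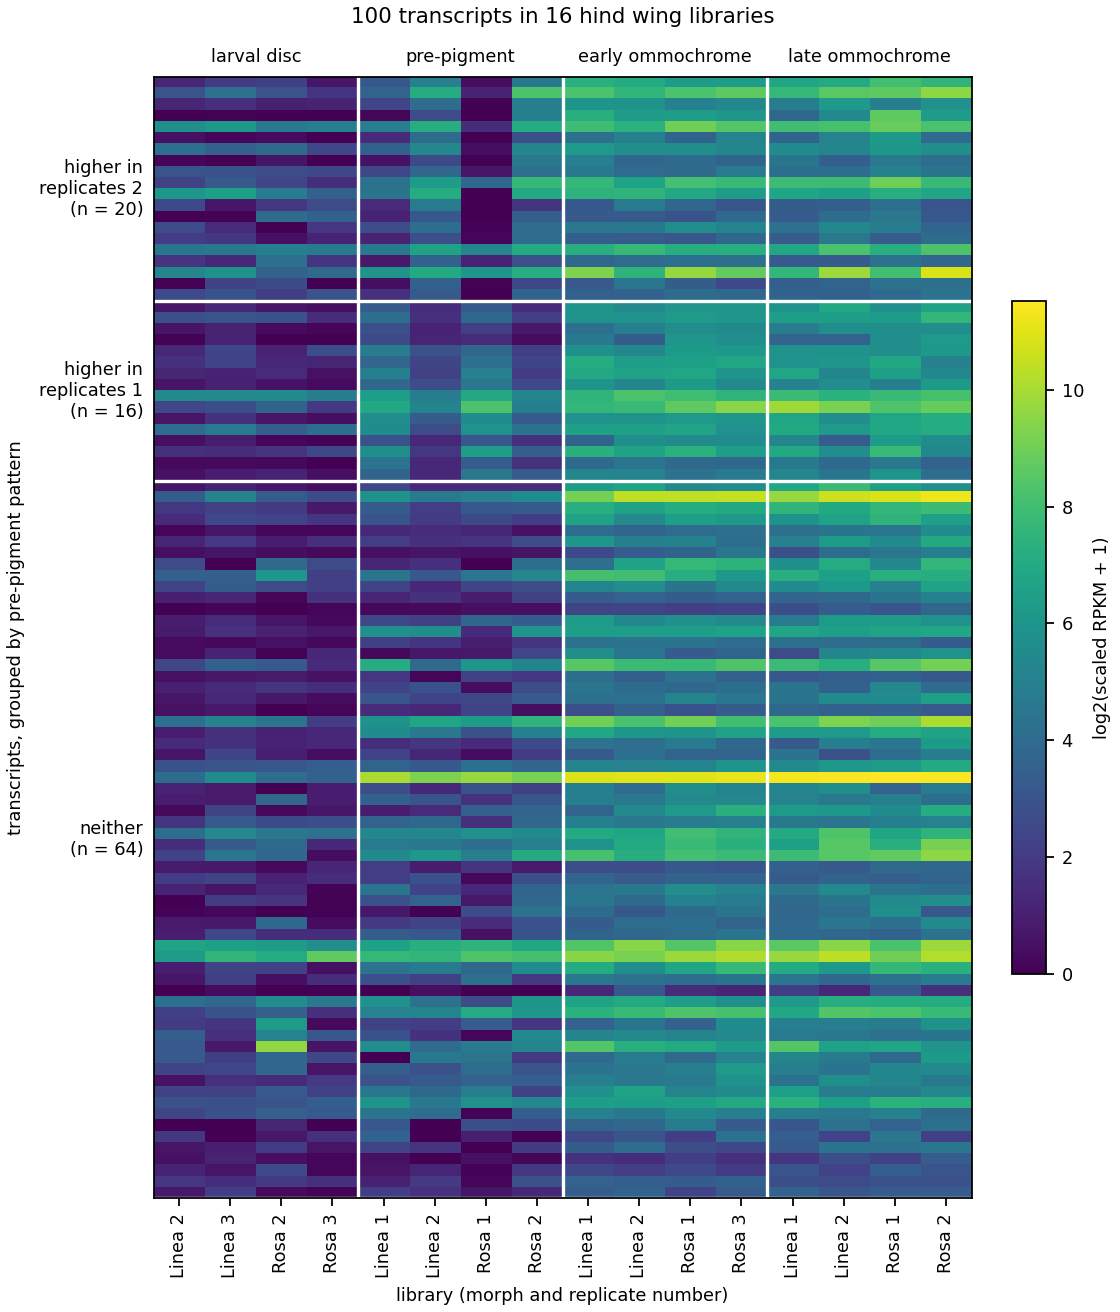
Levels of the 100 transcripts (rows) in the 16 libraries (columns, by stage, morph and replicate number), as log2(scaled RPKM + 1). Rows are grouped by whether pre-pigment replicate 2 exceeded replicate 1 by over 2-fold in both morphs (20), the reverse (16) or neither (64). Larval columns are mostly low in all 3 groups, while the pre-pigment columns differ between them.

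The transcript with the largest ranking value was JC_0049707. It was at 0.579 and 1.06 scaled RPKM in Linea larval discs (replicates 2 and 3), 0.617 and 0.353 in Rosa discs (replicates 2 and 3), 4.39 and 1.64 in Linea pre-pigment wings (replicates 1 and 2) and 1.58 and 1.74 in the Rosa ones. At early ommochrome it was at 80.3 and 103 in Linea and 43.4 and 47.1 in Rosa (replicates 1 and 3), and at late ommochrome at 116 and 219 in Linea and 90.1 and 54.9 in Rosa. The lowest ommochrome library, Rosa early replicate 1, was thus about 10 times the highest earlier one. JC_0049707 was also lower in Rosa than in Linea in all ommochrome comparisons of group means, which is taken up below.

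JC_0109911 combined the largest rise of the set with a very high final level. Its 4 larval libraries were at 9.59 and 34.9 scaled RPKM in Linea and 9.58 and 5.42 in Rosa, and its pre-pigment libraries at 57.1 and 25.8 in Linea and 33.5 and 48.2 in Rosa. It then stood at 547 and 1352 in Linea and 1347 and 1460 in Rosa at early ommochrome, and at 857 and 1603 in Linea and 1878 and 2381 in Rosa at late ommochrome. The mean rise over the pre-pigment mean was 5.03 log2 units. By its mean over the ommochrome libraries it ranked 54th among all transcripts in the table. Linea early ommochrome replicate 1 was the lowest of the ommochrome libraries and the Rosa late libraries were the highest.

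JC_0049671 rose more evenly. Its larval values were 2.61 and 3.79 scaled RPKM in Linea and 2.82 and 0.701 in Rosa, and its pre-pigment values 9.26 and 3.24 in Linea and 8.11 and 9.16 in Rosa. The ommochrome values were 147 and 97.8 in early Linea, 141 and 127 in early Rosa, 185 and 125 in late Linea and 197 and 238 in late Rosa wings. No morph stood apart at any of these stages except late ommochrome, where both Rosa libraries lay above both Linea ones. JC_0049602 had a similar course, with 1.61 to 4.67 scaled RPKM in the 4 larval libraries, 3.06 to 6.85 in the 4 pre-pigment ones, 42.0 to 98.9 at early and 57.9 to 179 at late ommochrome.

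**Figure D3:**
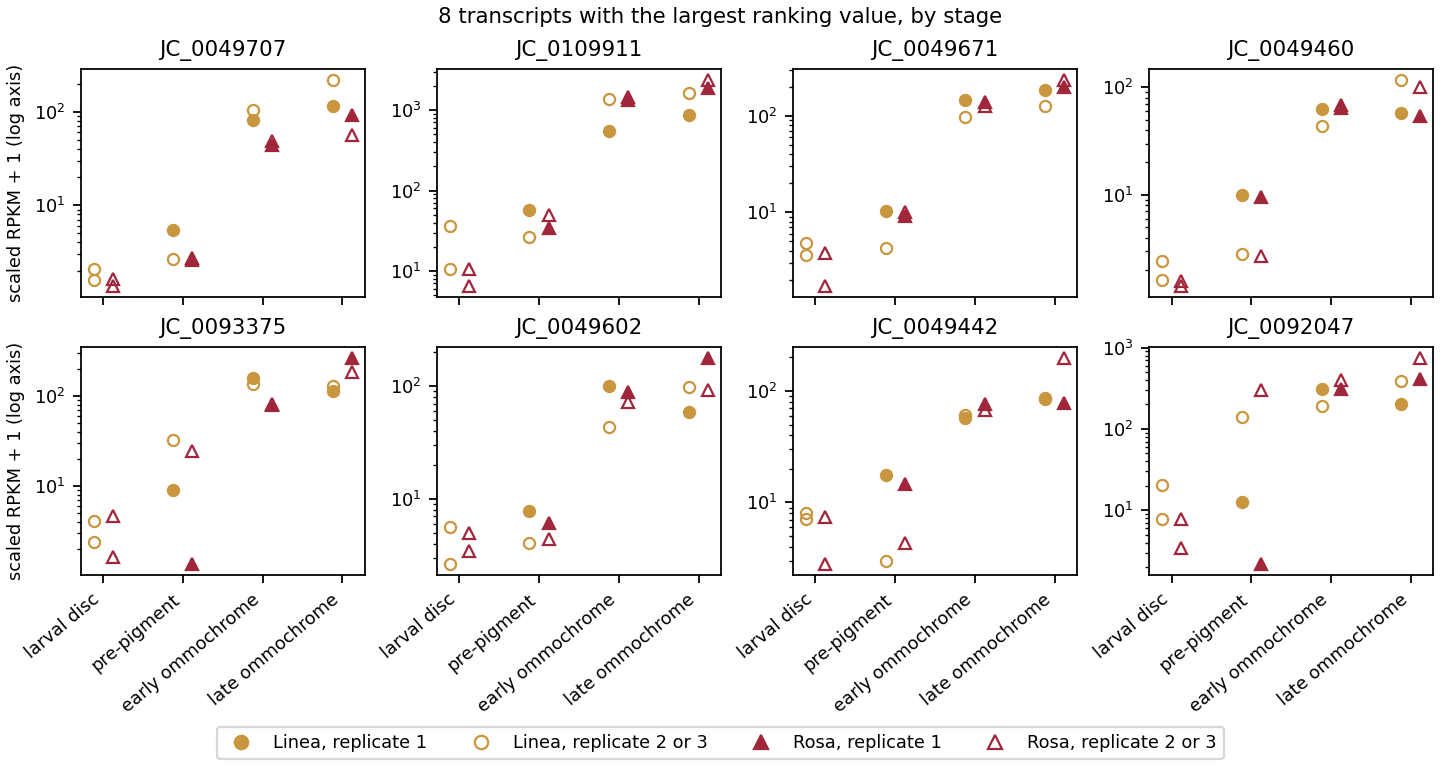
Levels of the 8 transcripts with the largest ranking value, as scaled RPKM + 1 on a log axis (y) at the 4 stages (x). Each point is a library, circles are Linea and triangles Rosa, and filled symbols are replicate 1; in JC_0092047, Rosa pre-pigment replicate 2 at 301 scaled RPKM lies within the ommochrome range and Linea pre-pigment replicate 2 at 138 lies below it.

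High abundance came with large and with small rises. JC_0049178 was the most abundant of the set, at 2413 scaled RPKM over the ommochrome libraries, and ranked 34th in the table. It was at 15.7 and 47.8 in Linea and 16.6 and 10.9 in Rosa larval discs, and already at 1049 and 610 in Linea and 857 and 594 in Rosa pre-pigment wings. At early ommochrome it reached 1938 and 1958 in Linea and 1959 and 2325 in Rosa, and at late ommochrome 2609 and 2759 in Linea and 2935 and 2821 in Rosa. Most of its rise thus fell between the larval and the pre-pigment libraries, and the further rise to the ommochrome mean was 1.65 log2 units. The other abundant transcripts were JC_0023710, JC_0023933 and JC_0097453, at 905, 659 and 546 scaled RPKM over the ommochrome libraries. JC_0023710 was at 521 to 1343 in the ommochrome libraries and at 78.7 to 418 in the earlier ones. JC_0097453 was at 296 to 881 and at 50.9 to 178. JC_0023933 varied the most between replicates of these, with 195 and 898 in late Linea and 261 and 1874 in late Rosa wings, replicate 2 being the higher in both, and with 620 and 177 in early Linea wings, where replicate 1 was the higher.

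Pre-pigment means were above larval means in most of the set, and on the log2 scale both were below the ommochrome means. The pre-pigment mean of log2 levels was above the larval one in 88 of the 100 transcripts, against 45.7% of all transcripts tested. It was over 2-fold above in 51, as in 3402 of the 15798 transcripts tested. With means taken on the log2 scale, no transcript had a larval mean over 2-fold above its pre-pigment mean. Means of scaled RPKM itself could differ more. JC_0092946, for example, averaged 202 in larval discs and 32.1 in pre-pigment wings, and JC_0119429 averaged 20.6 and 4.74. Both larval averages were set by Rosa larva replicate 2. On unscaled RPKM the 88 became 53; there, all transcripts had a median shift of -1.09 log2 units from larva to pre-pigment, and the 100 one of 0.27. It was 93 without the pre-pigment libraries of replicate 1 and 74 without those of replicate 2. Averaged as scaled RPKM, 28 transcripts were below 1 in larval discs and 4 in pre-pigment wings.

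JC_0050241 had the largest pre-pigment level relative to larvae after JC_0049178. Its larval libraries were at 0.781 and 2.17 scaled RPKM in Linea and 1.21 and 0.675 in Rosa, and its pre-pigment libraries at 54.7 and 52.3 in Linea and 1.59 and 61.8 in Rosa. All 8 ommochrome libraries were between 83.0 and 120. Rosa pre-pigment replicate 1 was the only pre-pigment library in the larval range, and without it the rise from pre-pigment fell from 1.90 to 0.76 log2 units. At the other extreme, JC_0092768 had larval values of 10.1 and 1.91 in Linea and 34.1 and 7.67 in Rosa, and pre-pigment values of 6.56 and 2.22 in Linea and 0.147 and 44.2 in Rosa. Its ommochrome libraries were at 19.5 to 42.3, so Rosa larva replicate 2 lay inside that range and Rosa pre-pigment replicate 2 just above it. Its rise of 1.62 log2 units came to 1.01 when Linea larva replicate 3 was left out, to 2.21 when Rosa larva replicate 2 was, and to 0.84 on deposited RPKM.

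Single larval libraries set the larval level of a few transcripts. JC_0092946 was at 798 scaled RPKM in Rosa larva replicate 2 and at 0.528 to 8.37 in the other 3 larval libraries. Its pre-pigment values were 15.3 to 49.1 and its ommochrome values 60.7 to 345, so this larval library was above every ommochrome library. JC_0119429 showed the same library apart, at 76.7 against 0.215 to 3.07, with ommochrome values of 11.4 to 57.6. Its rise was 2.34 log2 units without Rosa larva replicate 2 and 1.36 without Rosa larva replicate 3, against 2.16 with all libraries. JC_0092266 had no such library, with larval values of 4.10 and 21.8 in Linea and 13.9 and 0.304 in Rosa, and 144 to 744 at the ommochrome stages.

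Pre-pigment libraries of the same replicate number resembled each other across the morphs, and a part of the set divided along that line. In 20 transcripts pre-pigment replicate 2 was over 2-fold above replicate 1 in both Linea and Rosa, as in 9.97% of all transcripts tested. In 16 the reverse held, as in 5.03% of all. In the remaining 64 neither did, and in 5 the morphs went opposite ways by over 2-fold, as in 3.82% of all. Across the 100 transcripts the differences between replicates 2 and 1 in Linea and in Rosa were correlated with Pearson's r of 0.63 and Spearman's rho of 0.67, against 0.38 and 0.37 across all transcripts tested. These are correlations across transcripts that share the same 4 libraries, and no p is given. A pre-pigment library near 0 lowers the pre-pigment mean and so favours inclusion, so these counts are not independent of the choice. The part of the low number of transcripts detected in Rosa pre-pigment replicate 1 (11339 at 1 RPKM, against 12130 to 12674 in the other pre-pigment libraries) in these groups was not tested.

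**Figure D4:**
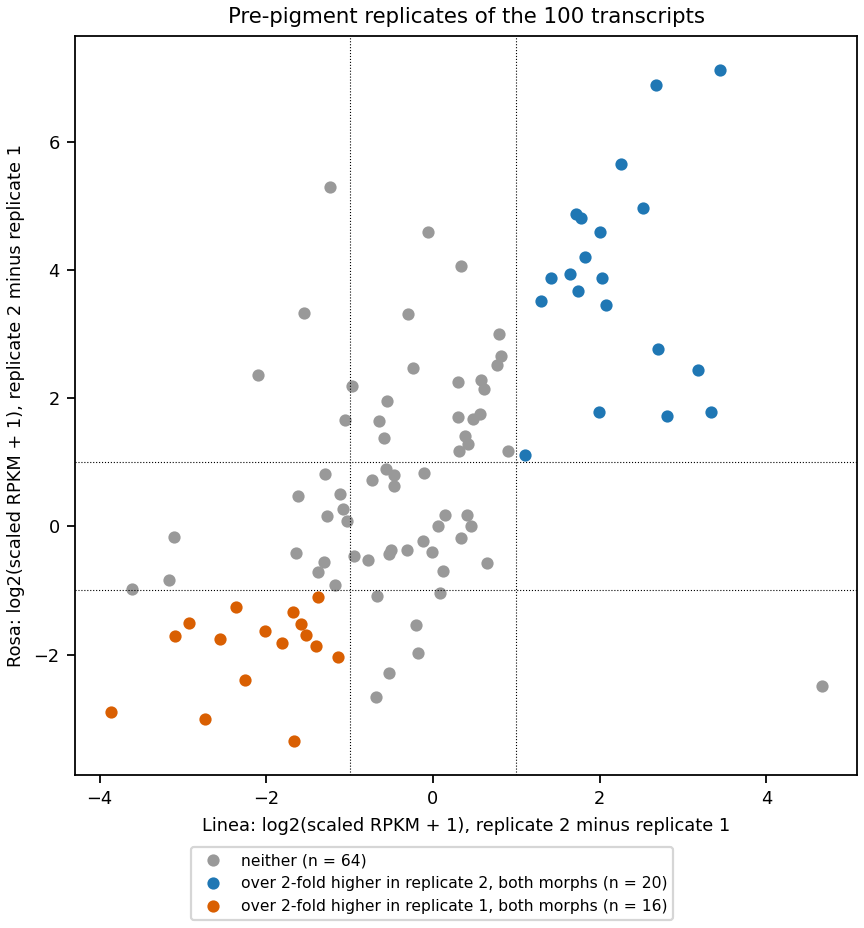
Difference between pre-pigment replicates 2 and 1 in Linea (x axis) and in Rosa (y axis) for the 100 transcripts, in log2(scaled RPKM + 1). Dotted lines mark a 2-fold difference; 20 transcripts lie beyond it towards replicate 2 in both morphs and 16 towards replicate 1.

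In the group of 20, the median in Rosa pre-pigment replicate 2 lay within the range of the ommochrome medians, and that in Linea replicate 2 below it. Their median was 16.6 scaled RPKM in Linea replicate 2 and 23.8 in Rosa replicate 2, against 4.49 and 0.107 in the replicates numbered 1, and 19.8 to 50.1 in the 8 ommochrome libraries. In 17 of the 20, at least 1 of the replicate 2 libraries reached the lowest ommochrome library. JC_0092047 was at 11.7 and 138 in Linea and at 1.16 and 301 in Rosa pre-pigment wings (replicates 1 and 2), with 193 to 754 at the ommochrome stages and 2.38 to 19.2 in larvae. Its rise was 4.45 log2 units without Rosa pre-pigment replicate 2 and 2.05 without Rosa pre-pigment replicate 1, against 3.37 with all libraries.

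JC_0093098 and JC_0023685 had the widest pre-pigment ranges beside JC_0092047. JC_0093098 was at 20.8 and 138 in Linea and at 0.0477 and 123 in Rosa, with 79.1 to 180 at the ommochrome stages. Its larval discs were at 69.1 and 89.5 in Linea and 28.2 and 10.7 in Rosa, so Linea larva replicate 3 and both replicate 2 pre-pigment libraries lay within the ommochrome range. Its rise of 1.69 log2 units came to 0.77 when Rosa pre-pigment replicate 1 was left out, to 1.09 when Rosa larva replicate 3 was, and to 0.85 on deposited RPKM. JC_0023685 was at 29.7 and 145 in Linea and at 1.73 and 137 in Rosa, and at 161 to 519 in the ommochrome libraries. Its rise was 1.81 without Rosa pre-pigment replicate 1, against 2.83 with all libraries. JC_0093375 followed the same order at lower levels, with 8.06 and 31.2 in Linea and 0.332 and 23.5 in Rosa.

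The group of 16 showed the opposite order and started from a lower larval level. Its median was 18.3 scaled RPKM in Linea and 20.3 in Rosa pre-pigment replicate 1, against 3.14 and 3.83 in the replicates numbered 2. The larval medians were 0.407 to 1.62 and the ommochrome medians 50.9 to 77.3. In 5 of the 16 a replicate 1 library reached the lowest ommochrome library. JC_0023634 was at 117 and 36.1 in Linea and at 315 and 30.0 in Rosa pre-pigment wings (replicates 1 and 2), and at 2.86 to 12.3 in larval discs. Its ommochrome values were 196 and 220 in early Linea, 409 and 699 in early Rosa, 943 and 593 in late Linea and 325 and 442 in late Rosa wings. JC_0049460 had 8.87 and 1.81 in Linea and 8.57 and 1.72 in Rosa, with 42.5 to 117 at the ommochrome stages. JC_0049442 had 16.7 and 1.99 in Linea and 13.7 and 3.34 in Rosa, with 56.7 to 198 at the ommochrome stages.

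Early and late ommochrome levels were both used in the choice, so nothing is read from their difference. The late mean was the higher in 68 of the 100 transcripts, with a median difference of 0.22 log2 units. It was the higher in 45.0% of all transcripts tested, which include those outside the bound of the choice. Leaving out a single library moved the count of 68 between 59 and 74. The highest of the 8 ommochrome libraries was a late one for JC_0109911 and JC_0049671, and an early one for JC_0002931. JC_0002931 was at 18.1 and 98.9 in early Linea, 202 and 175 in early Rosa, 51.8 and 134 in late Linea and 38.8 and 198 in late Rosa wings, against 0.0304 to 15.0 in larval and 0.00647 to 15.8 in pre-pigment libraries.

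Differences between the morphs were not used in the choice, which treated Linea and Rosa libraries alike, although it limits how low any ommochrome library can be. Rosa levels were the higher in 74 of the 100 transcripts when early and late ommochrome were averaged, against 50.1% of all transcripts tested. The median difference was 0.20 log2 units, against 0.0019 for all. At late ommochrome 77 were higher in Rosa, against 53.6% of all, and at early ommochrome 59, against 45.2%. With a library left out these counts were 65 to 79 at late and 56 to 63 at early ommochrome. In larval discs 36 were higher in Rosa, against 49.1% of all. This larval count was 26 without Rosa larva replicate 2 and 48 without Linea larva replicate 3. In pre-pigment wings 55 were higher in Rosa, against 44.4% of all; the effect of the scaling on this count was not computed. With RPKM as deposited, 85 were higher in Rosa at early, 84 at late and 95 over both ommochrome stages. At early and late ommochrome the median of all transcripts was then shifted by 0.47 and 0.17 log2 units towards Rosa and that of the 100 by 0.83 and 0.58.

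No single transcript of the set passed the threshold for a morph difference. The test was limma on all 16 libraries with an adjusted p (Benjamini-Hochberg over 15798 transcripts) under 0.05. Averaged over early and late ommochrome 0 of the 100 were called, as were 0.038% of all transcripts, with 3 at an unadjusted p under 0.05, against 5.86% of all. By limma, 0 were called at early ommochrome (0.0127% of all) and 0 at late ommochrome (0.00633% of all), with 2 and 3 at an unadjusted p under 0.05, against 5.58% and 5.35% of all. Limma also called 0 in larval discs (0.114% of all) and 0 in pre-pigment wings (0% of all), with 1 and 3 at an unadjusted p under 0.05, against 6.48% and 4.86% of all. Whether the morph difference changed from early to late ommochrome was tested as an interaction, and limma called 0 of the 100 (0% of all), with 2 at an unadjusted p under 0.05, against 5.12% of all. These two-sided tests rest on 2 libraries a group, and a count of 0 does not show that the morphs were alike. Without Rosa larva replicate 3, JC_0119429 and JC_0092946 were called higher in Rosa discs, and 1.08% of all transcripts were called in either direction. Calls of lower levels in Rosa pre-pigment wings appeared without Rosa pre-pigment replicate 2. That fit left replicate 1 as the only Rosa pre-pigment library, so those calls are not read as a morph difference. Replicate 1 also had the fewest transcripts at 1 RPKM (11339), and the part of this in the calls was not tested.

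JC_0097754 had the lowest adjusted p of the averaged ommochrome comparison within the set. It was at 24.5 and 9.66 scaled RPKM in early Linea and 12.7 and 11.3 in late Linea wings, against 63.1 and 49.7 in early Rosa and 49.2 and 75.2 in late Rosa wings. All 4 Rosa libraries thus lay above all 4 Linea ones, and the Rosa mean was 2.02 ± 0.47 log2 units higher (SE; limma, adjusted p = 0.355). The adjusted p ran from 0.301 to 0.788 over its alternatives, and the direction was kept in all of them. In pre-pigment wings its morphs overlapped, at 5.04 and 1.31 in Linea and 1.69 and 0.254 in Rosa, and both Rosa larval libraries were listed at 0.

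JC_0110483 was the next transcript higher in Rosa. Linea was at 4.76 and 9.29 scaled RPKM at early and 6.00 and 15.7 at late ommochrome, and Rosa at 11.8 and 22.1 at early and 22.1 and 29.0 at late ommochrome. The groups separated within each stage, and over both the Rosa mean was 1.22 ± 0.39 log2 units higher (SE; limma, adjusted p = 0.561). On the lower side in Rosa, JC_0049707 differed by -1.08 ± 0.35 log2 units (SE; limma, adjusted p = 0.588), with its 4 Rosa ommochrome libraries at 43.4 to 90.1 and its 4 Linea ones at 80.3 to 219. With RPKM as deposited it differed by -0.64. JC_0024168 differed by -0.72 ± 0.57 log2 units (SE; limma, adjusted p = 1.00), at 28.6 to 45.4 in Rosa and 28.6 to 97.4 in Linea. Its difference was -0.31 without Linea late replicate 1, -1.11 without Linea late replicate 2 and -0.28 with RPKM as deposited.

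Separation of the morphs without overlap was frequent among all transcripts too. At early ommochrome both Rosa libraries lay above both Linea ones in 31 of the 100 (17% of all transcripts tested) and below in 13 (22.1% of all). At late ommochrome they lay above in 31 (16.9% of all) and below in 6 (12.4% of all). In larval discs they lay above in 9 (17% of all) and below in 24 (20.8% of all), and in pre-pigment wings above in 13 (12.1% of all) and below in 4 (14.6% of all). In 6 of the 100 the Rosa libraries lay on opposite sides of the Linea ones at early and at late ommochrome, as in 5.18% of all. In 4 transcripts all 4 Rosa ommochrome libraries lay above all 4 Linea ones, as in 1.67% of all transcripts tested, and in 0 they all lay below, as in 1.8% of all. They were JC_0097754, JC_0023685, JC_0093602 and JC_0110454. Of these, JC_0093602 was named after its values were seen; it was at 14.8 to 21.7 scaled RPKM in Linea and 26.8 to 51.1 in Rosa. JC_0110454 was at 10.8 to 12.0 in Linea and 13.4 to 19.8 in Rosa. JC_0023685 was at 161 to 285 and 300.1 to 519.

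**Figure D5:**
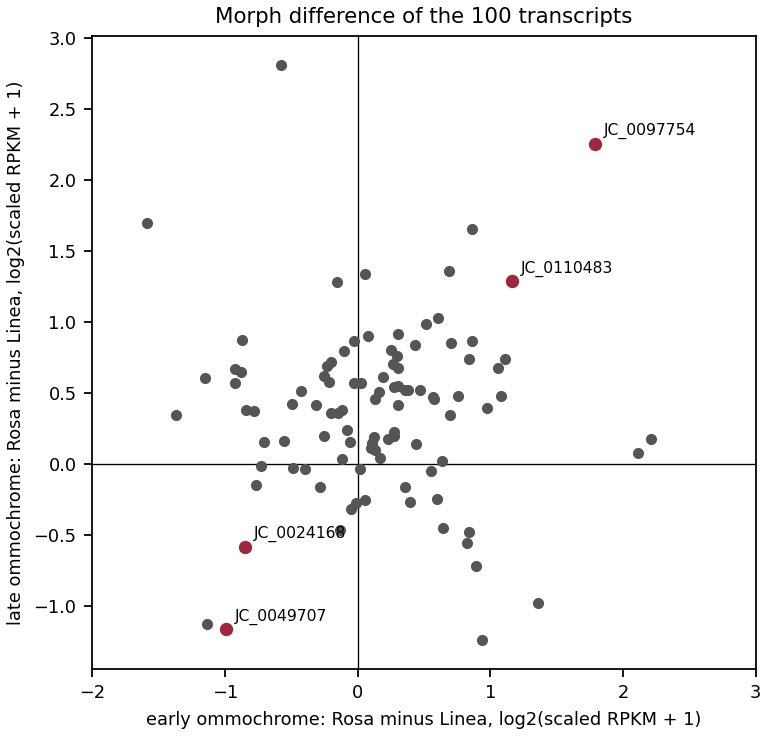
Rosa minus Linea difference of the 100 transcripts at early (x axis) and late ommochrome (y axis), in log2(scaled RPKM + 1). Each point is a transcript; 77 lie above 0 at late and 59 at early ommochrome, and the 4 named points are those with the lowest p in each direction over both stages.

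The choice was also repeated in the 8 libraries of a single morph, and the other morph was then examined. The other morph's libraries were not used in that choice but are not fully independent of it. Same-numbered Linea and Rosa libraries deviated together, with a correlation across all transcripts tested of 0.379 in pre-pigment wings, 0.171 in larvae and 0.172 at late ommochrome, so a pre-pigment library that was low in one morph tended to be low in the other. Of 100 transcripts chosen in Linea, 89 had a higher ommochrome mean than either earlier mean in Rosa, against 29.2% of all transcripts tested there, and 73 were at least 2-fold higher, against 6.75%. The median rise in Rosa was 1.79 log2 units, against -0.47 for all. Of 100 chosen in Rosa, 83 were higher in Linea, against 26.7% of all, and 48 at least 2-fold higher, against 5.12%. Their median rise in Linea was 0.92 log2 units, against -0.52 for all. The Linea and Rosa lists had 21 transcripts in common, 21% of each. All 21 were among the 100 described here, which were ranked on the libraries of both morphs, so nothing is read from that.

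Tests in the other morph were limited by its 8 libraries. A transcript was called where limma gave an adjusted p under 0.05 for a higher ommochrome mean against both earlier stages. Of those chosen in Linea, limma called 0 in Rosa (0% of all), with 53 at an unadjusted p under 0.05 in both comparisons, against 2.51% of all. Of those chosen in Rosa, limma called 9 in Linea, against 0.164% of all. Whichever Linea library was left out, 0 to 4 of these were called, the lowest count being that without Linea pre-pigment replicate 2. Calls in Rosa also appeared without Rosa pre-pigment replicate 2. That fit had replicate 1 as its only pre-pigment library, so those calls are not read as a result. Replicate 1 also had the fewest transcripts at 1 RPKM (11339), and the part of this in the calls was not tested.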

How the data were processed

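Polyadenylated RNA of hind wings was made into cDNA with the Ovation system, sheared to 300 bp and read from both ends for 75 bp or 100 bp, per the labels' protocols. The deposited values are RPKM per transcript and library, made by the authors on their own assembly. Per the submitters' processing notes, Bowtie 0.12.7 was used. What assembled the transcripts, estimated RPKM or filtered rows is not given in the sources used here. RPKM keeps no read count: 2595 values lay above 0 and below 0.001 RPKM, which is not what whole reads give, so no count test was run and depth is unknown.

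Columns were tied to samples by name. Library factors were median ratios to the row geometric mean, taken on the 7126 transcripts that reach 1 RPKM everywhere, and 1 was added after division and before taking log2. Fold changes on this scale understate those of low transcripts. Morph tests used limma 3.58.1 in R 4.3.3, with 8 group means, trended moderated variances and the 15798 transcripts that reach 1 RPKM in 2 libraries. The code of the fit and of the choice was run on simulated data with independent noise. Such data lack the deviations shared by same-numbered libraries, so nothing is read from that run about these transcripts.

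The 100 transcripts and all lists were chosen with earlier results of these data known. Named transcripts were those with the 8 largest ranking values, the 5 highest levels, the 3 on either side of the border, the 3 widest ranges in each early stage, the 3 largest differences between early stages each way, and the lowest p between morphs. Same-numbered Linea and Rosa libraries deviated together from their group means over all transcripts (correlations of 0.171 in larvae, 0.379 in pre-pigment and 0.172 in late ommochrome wings; early ommochrome shares only number 1), so numbers were treated as pairing the morphs within a stage in an alternative fit. Alternatives were a pseudocount of 0.1, unscaled RPKM, quantile normalization, other filters, blocks, array weights, fewer libraries and other bounds of the choice.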

Additional observations from a re-analysis of the deposited data

Results flagged for a closer look

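Of 128 checks of a named transcript or of the summed share among the 4 libraries of a stage, 19 found a library far from the other 3. Chance gives about 1 in 20 for normally distributed values in groups not chosen by their values. The checks used values without log2, and whether those are normally distributed was not tested. Several of these transcripts were named for a wide range or a large difference in the earlier stages, so the number of such findings cannot be read against that rate. Of the 19, 11 were in larval discs, 5 each in Linea larva replicate 3 and Rosa larva replicate 2.

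In Rosa larva replicate 2 the share of summed RPKM held by the 100 transcripts was 0.440%, against 0.169% to 0.211% in the others. In that library JC_0092946 was at 798 scaled RPKM (others up to 8.37), JC_0119429 at 76.7 (others up to 3.07), JC_0115238 at 29.4 (others up to 9.26) and JC_0024168 at 8.33 (others up to 3.90). In Linea larva replicate 3, JC_0109911 was at 34.9 scaled RPKM (others up to 9.59), JC_0049178 at 47.8 (others up to 16.6), JC_0016818 at 3.43 (others up to 0.648), JC_0111169 at 4.18 (others up to 0.722) and JC_0097754 at 1.23 (others up to 0.0348). In Rosa larva replicate 3, JC_0049442 was low, at 1.78 scaled RPKM against 6.12 or more.

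Among pre-pigment libraries, JC_0049707 was at 4.39 scaled RPKM in Linea replicate 1 (others up to 1.74) and JC_0050241 at 1.59 in Rosa replicate 1 (others 52.3 or more). In Rosa pre-pigment replicate 2, JC_0092768 was at 44.2 (others up to 6.56) and JC_0002931 at 15.8 (others up to 1.94). At early ommochrome JC_0109911 was at 547 scaled RPKM in Linea replicate 1 (others 1347 or more) and JC_0049178 at 2325 in Rosa replicate 3 (others up to 1959). In Rosa late ommochrome replicate 2, JC_0049442 was at 198 (others up to 85.3) and JC_0119429 at 57.6 (others up to 29.1).

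In 3 named transcripts, of 6 among the 100, the Rosa libraries lay on one side of the Linea ones at early ommochrome and on the other at late ommochrome, as in 5.18% of all transcripts tested. The difference between the stages was 1.75 log2 units for JC_0093375 and 1.22 for JC_0093098, which were lower in Rosa at early and higher at late ommochrome, and -2.34 for JC_0023634, which went the other way. None of these interactions passed the threshold (limma adjusted p = 1.00 for each).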

How the results depend on the processing

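Of the 100 transcripts, 72 were chosen again with RPKM as deposited, 94 with quantile normalization, 75 with a pseudocount of 0.1, 65 with early and late means within 0.5, 62 with the mean in place of the lowest library, 51 from Linea libraries alone, 39 from Rosa libraries alone and 75 to 94 with a library left out. Without the pre-pigment libraries of replicate 1 it was 59 and without those of replicate 2 it was 57, alternatives added after seeing the data. The count with a higher pre-pigment than larval mean was 53 with RPKM as deposited, and it ranged from 80 to 95 with a library left out. Under alternatives that kept 2 libraries a group, calls between morphs stayed at 0 in all 6 comparisons. With a single library left out, some appeared, in larval discs and in pre-pigment wings only. A replicate block, over all stages or within a stage, gave 0 in each. Transcripts chosen in Linea gave 1 call in Rosa with RPKM as deposited (0.00654% of all tested) and 5 with quantile normalization (0.0524%). A mean of at least 5 RPKM gave 3 (0.0373%), and the count changed with the library left out. The 9 calls of those chosen in Rosa became 5 with RPKM as deposited, 3 with a pseudocount of 0.1, 2 with no low-value filter, 2 with array weights, 0 to 4 with a library left out and 0 with a replicate block. That block assumes that numbers pair stages within a morph, where correlations over all transcripts were -0.166 to 0.138, so its samples share only a number. Rises of 21 named transcripts kept their sign in all 399 values, and 18 moved by more than the SD of the ommochrome libraries. Leaving out a library leaves a group of 1, which is assumed to vary like the other groups. Unless given, the cause was not tested. Depth is unknown, so no limit is set on values near 0.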

Other observations

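Identifiers of the 100 transcripts were unevenly spread over the authors' numbering. Grouped by the first 4 digits, those beginning JC_0110 and JC_0049 held the most members, with 14 and 12, and these 2 groups were picked after the counts were seen. Together they held 26 of the 100, or 2.24% of the 1160 transcripts listed in them, against 0.615% of the whole table. Next came JC_0023, JC_0092 and JC_0111, tied at 7 members each, or 1.69% of the 1244 listed in these 3. JC_0049 includes 5 of the 8 transcripts with the largest ranking value. The sources used here do not say how the numbers were assigned.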
